A study of Mus musculus with 5 samples.

Results

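The paternally methylated imprint control regions are stretches of DNA that receive their methylation in the male germ line and keep it on the copy inherited from the father. They were taken here as 4 fixed windows of the mm10 mouse genome, chosen by position and not by their values: upstream of H19 (chr7:142580000-142582500), between Dlk1 and Meg3, upstream of Rasgrf1 (chr9:89870000-89881000) and between Gpr1 and Zdbf2 (chr1:63257000-63265000). Listed CpGs fell in 3 of the 4 windows, and the Dlk1-Meg3 window is not analysed here. The 3 windows held 247 of the 13063725 CpGs listed in any library, with 101, 101 and 124 in young replicates 1, 2 and 3 and 108 and 160 in old replicates 1 and 2. Sperm of C57BL/6 mice, collected by letting it swim out of the cauda epididymis where sperm are stored, was measured by whole-genome bisulfite sequencing. The young group was 3 libraries of mice aged 2 months and the old group 2 libraries of mice aged 18 months, with no treatment or altered gene named in the labels. The labels do not say whether libraries came from separate animals, so p-values speak only of how far these libraries spread.

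Bisulfite turns unmethylated cytosines into bases read as T, so the methylation level of a window is the share of its reads that still show C at a CpG. At a paternally methylated control region, the methylated copy from the father and the unmethylated copy from the mother direct genes nearby to be used from 1 parental chromosome only. The H19 region keeps Igf2, a fetal growth factor, in use on the paternal copy and the noncoding RNA H19 on the maternal copy. Methylation upstream of Rasgrf1, which encodes an activator of Ras signalling in neurons, goes with use of the paternal copy, and Zdbf2, which encodes a zinc finger protein, is likewise used from the father's chromosome. Gpr1 encodes a receptor for the signalling protein chemerin.

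The 5 libraries held 67774094 to 97769462 reads over listed cytosines, with a median of 7 reads at a CpG and 86.3% to 86.9% of all reads methylated. The files list a cytosine only from 5 reads upward. The H19 window had 33 listed CpGs and 302 reads over all libraries, the Rasgrf1 window 94 CpGs and 2698 reads, and the Gpr1-Zdbf2 window 120 CpGs and 2231 reads. The same CpGs were rarely seen in every library: 0, 14 and 7 CpGs of the 3 windows were listed in all 5. Intervals below are exact 95% binomial intervals and cover counting error only, because reads are not independent molecules.

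The H19 window lies 1854 bp to the right of the RefSeq coordinates of H19 (chr7:142575530-142578146), outside any annotated gene. Its level was 88.0% in young replicate 1 (50 reads, interval 75.7% to 95.5%), 62.2% in young replicate 3 (90 reads, 51.4% to 72.2%), 76.2% in old replicate 1 (63 reads, 63.8% to 86.0%) and 92.9% in old replicate 2 (99 reads, 86.0% to 97.1%). Young replicate 2 had no listed CpG there and stays out of every H19 value. Each age thus had 1 higher and 1 lower library, and the ages overlapped. The young mean was 75.1% ± 18.2 (SD, n = 2) and the old mean 84.6% ± 11.8 (SD, n = 2), a difference of 9.45 points (p = 0.667, two-sided exact permutation test, where 0.333 is the smallest p that 4 libraries allow). No CpG of the window was listed in more than 3 libraries, so the libraries were compared mostly at different CpGs. Young replicate 3 decided the direction: without it the old mean was lower, with a difference of -3.44 points. The difference was 22.3 points without young replicate 1, 17.8 without old replicate 1 and 1.08 without old replicate 2.

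At the 6 CpGs listed in both old libraries, old replicate 2 was higher at 6 of 6, with 90.9% of 33 reads against 67.6% of 37 reads in old replicate 1. At the 3 CpGs listed in both young replicates 1 and 3, young replicate 1 was higher at 3 of 3. The CpGs of the old pair lie at chr7:142580952-142580958 and chr7:142581407-142581455, and those of the young pair at chr7:142580547-142580563. Each had 5 to 7 reads in a library. Neighbours this close can share reads, so 6 of 6 and 3 of 3 are not counts of independent agreements. The spread between libraries of 1 age was thus seen at shared CpGs too, but on few reads. Of 15 CpGs with at least 10 reads over all libraries, 8 were methylated in at least 80% of reads, 7 in 50% to 80% and 0 in less than 50%. By stretches of 500 bp, the lowest level with reads pooled was 70%, on only 10 reads (chr7:142581501-142582000), and the highest was 97.6%, on 41 reads that all came from old replicate 2 (chr7:142582001-142582500).

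The Rasgrf1 window, 28508 bp to the left of Rasgrf1 (chr9:89909508-90026979) and 5972 bp to the right of the noncoding RNA gene 4930524O08Rik, lay in no annotated gene and was the most evenly methylated of the 3. Its level was 86.7% in young replicate 1 (429 reads), 93.9% in young replicate 2 (407 reads), 82.6% in young replicate 3 (668 reads), 85.4% in old replicate 1 (506 reads) and 85.9% in old replicate 2 (688 reads). Both old libraries lay inside the range of the young ones. The young mean was 87.7% ± 5.68 (SD, n = 3) and the old mean 85.6% ± 0.372 (SD, n = 2), a difference of -2.10 points (p = 0.8, two-sided exact permutation test, smallest possible 0.1). The difference rested on young replicate 2, without which it was 0.964 points in the other direction. At the 14 CpGs listed in all 5 libraries the level was 84.8%, 91.6% and 81.7% in young replicates 1, 2 and 3 and 83.0% and 87.9% in old replicates 1 and 2, again with young replicate 2 highest and young replicate 3 lowest.

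The measured parts of the Rasgrf1 window were methylated, with reads in 15 of its 22 stretches of 500 bp and none in its last kilobase. Of 73 CpGs with at least 10 pooled reads, 60 were methylated in at least 80% of reads, 13 in 50% to 80% and 0 in less than 50%, and the median CpG was at 90%. Reads were unevenly spread: the first 500 bp (chr9:89870001-89870500) held 4 CpGs and 32.5% of the reads of the window. The CpG with the lowest pooled level among those with at least 10 reads in each library lay there, at chr9:89870292, with 73.9%, 94.0% and 62.3% in young replicates 1, 2 and 3 and 73.6% and 81.4% in old replicates 1 and 2. This CpG had 50 to 77 reads in each library, against a median of 7 at a CpG. Its highest and lowest libraries were those of the window. It holds 338 of the 2698 reads of the window, so the 2 orders are not independent. Whether copies of a repeat add to its reads was not tested. The lowest 500-bp stretch was at 69.7% of 33 reads (chr9:89878501-89879000). The highest was at 100% of 16 reads (chr9:89873001-89873500).

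The Gpr1-Zdbf2 window lies inside the longest RefSeq extent of Zdbf2 (chr1:63200358-63314576), 33722 bp to the right of Gpr1 (chr1:63182571-63223278) and 1469 bp to the left of the noncoding RNA gene Gm11608. It was the least methylated of the 3 in each library but young replicate 3, where the H19 window was lower, and young replicate 2, where the H19 window had no reads. Its level was 74.7% in young replicate 1 (438 reads), 80% in young replicate 2 (395 reads), 68.3% in young replicate 3 (438 reads), 68.6% in old replicate 1 (376 reads) and 64.6% in old replicate 2 (584 reads). The ages overlapped, since young replicate 3 lay below old replicate 1. The young mean was 74.3% ± 5.88 (SD, n = 3) and the old mean 66.6% ± 2.87 (SD, n = 2), a difference of -7.72 points (p = 0.3, two-sided exact permutation test, smallest possible 0.1). The difference was -10.7 points without young replicate 3 and -4.88 points without young replicate 2. At the 7 CpGs listed in all 5 libraries it was -6.76 points, with 84.4%, 91.0% and 73.2% in young replicates 1, 2 and 3 and 80.6% and 71.7% in old replicates 1 and 2.

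Each window was also tested in a quasi-binomial model of methylated and unmethylated reads, fitted with genome tiles of 2500 bp. The model called 0 of 537788 features at an adjusted p under 0.05 together with a change of 10 points or more (0%), with 21554 features (4.01%) at an unadjusted p under 0.05. Limma on the log2 odds of methylation also called 0, with 22127 features at an unadjusted p under 0.05. The groups did not overlap in 17.2% of all features and in 0 of the 3 windows. The quasi-binomial model, with its dispersion moderated by limma, gave the Gpr1-Zdbf2 window p = 0.0204 and an adjusted p of 1, and the Rasgrf1 window p = 0.638 and an adjusted p of 1. The H19 window was fitted by the same quasi-binomial model without young replicate 2, with p = 0.0809 and an adjusted p of 0.972. On simulated counts for the same comparison, the model recovered 76.5% of 200 features set 30 points lower in the old libraries and 41.5% of 200 set 20 points lower, and 67% and 26.5% of those set 30 and 20 points higher. Features set lower were drawn from highly methylated ones and features set higher from less methylated ones, so the rates for lower and higher are not of like features. The simulation used the dispersion typical of all features (1.56). The H19, Rasgrf1 and Gpr1-Zdbf2 windows had larger dispersions (2.87, 3.25 and 2.43), so these rates do not carry over to them. A difference under 10 points, as in the 3 windows, cannot be called by this rule whatever its p.

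**Figure D1:**
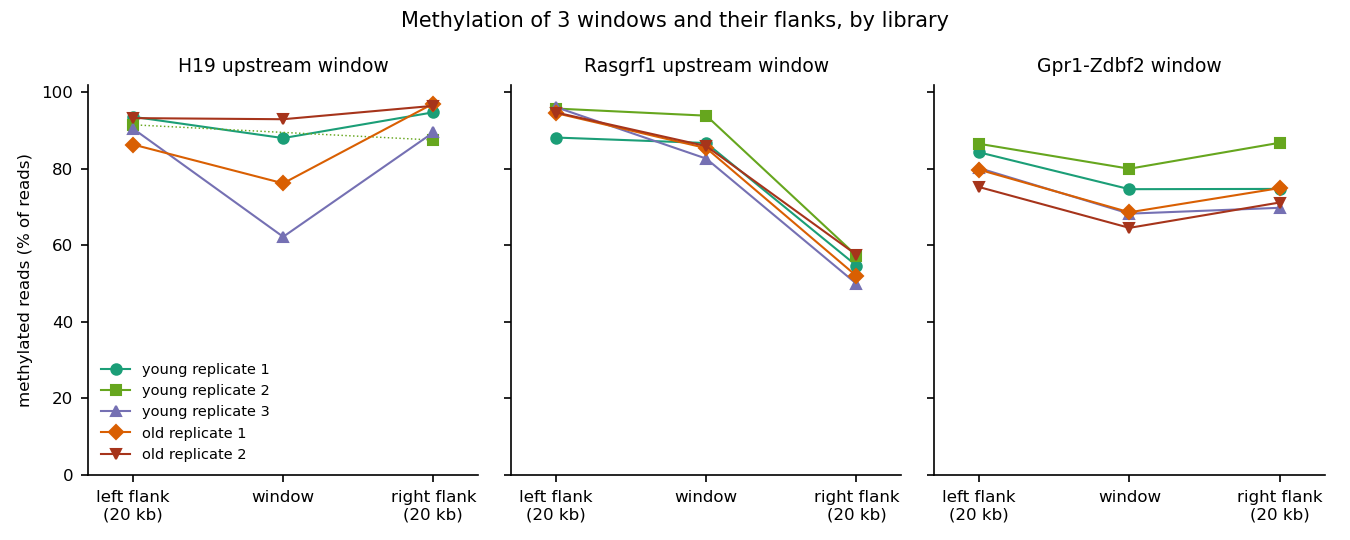
Methylated reads (percent of reads, y axis from 0) in each window and in 20 kb on either side, 1 line per library; the dotted line marks young replicate 2, which had no listed CpG in the H19 window. The H19 libraries spread from 62.2% to 92.9% inside the window, while the Rasgrf1 libraries stay between 82.6% and 93.9% and lie between 49.95% and 57.5% in the right flank.

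Sperm DNA outside CpG-rich promoters is almost fully methylated, so each window was set against 20 kb on either side in the same library. The median 2500-bp tile of the genome was methylated at 92.4% to 95% in the 5 libraries. The windows lay below that median in each library in which they were measured, with 4.16% to 44.7% of tiles below them. The H19 window was lower than its flanks in 4 of 4 libraries, with a mean difference of -12.3 points ± 11.7 (SD, n = 4; exact sign-flip permutation test, p = 0.125, the smallest possible). Its flanks were at 90.1% to 94.1%, and the difference ranged from -1.13 points in old replicate 2 to -27.8 points in young replicate 3. The mean difference was -7.08 points without young replicate 3. With flanks of 10 kb it was lower in 3 of 4 libraries.

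The Rasgrf1 window stood between 2 flanks of unlike summed level. It was lower than the left flank in 5 of 5 libraries (mean difference -6.93 points ± 5.16, SD, n = 5) and higher than the right flank in 5 of 5 (32.6 points ± 2.93, SD, n = 5; exact sign-flip permutation test, p = 0.062 for each, the smallest possible). The right flank was at 54.7%, 57.3% and 49.95% in young replicates 1, 2 and 3 and at 52.0% and 57.5% in old replicates 1 and 2. Its methylation was low just past the edge of the window: chr9:89882001-89883000 was at 26.4% of 523 reads, with 17.7%, 22.0% and 28.9% in young replicates 1, 2 and 3 and 26.4% and 40.0% in old replicates 1 and 2. A second low kilobase, chr9:89900001-89901000, was at 25.0% of 2038 reads and ranged from 21.1% to 30.9%. It lies between the window and the gene and holds more reads than any other kilobase of low methylation near the 3 windows. Low levels were also seen at chr9:89881001-89882000 (30.6%) and chr9:89883001-89884000 (39.1%). The left flank held a low kilobase too, chr9:89868001-89869000, at 29.1% of 55 reads, with 50 of them in young replicate 1. The left flank was at 88.1% in that library and at 94.5% to 96.1% in the others. The rest of the right flank was at 68.8% to 100% by kilobase, so its summed level rests on a few low kilobases. Against both flanks together the mean difference was 19.5 points, and 14.7 points as a mean over CpGs.

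The Gpr1-Zdbf2 window was lower than its flanks in 5 of 5 libraries, with a mean difference of -7.35 points ± 1.64 (SD, n = 5; exact sign-flip permutation test, p = 0.062, the smallest possible). Its flanks held troughs of their own. In the left flank, chr1:63247001-63248000, next to the noncoding RNA gene 1700039I01Rik, was at 3.12% of 96 reads. In the right flank, chr1:63274001-63275000, just past the inner start of Zdbf2, was at 14.9% of 302 reads. The size of the difference depended on the flank length: it was -1.34 points with flanks of 10 kb, with 4 of 5 libraries lower, and -15.3 points with flanks of 50 kb, with 5 of 5 lower. Both flanks together averaged 80.7% in the young and 75.4% in the old libraries, and the window minus flank value differed between ages by -2.44 points (p = 0.2, two-sided exact permutation test, smallest possible 0.1).

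Within a library, the Rasgrf1 window was higher than the Gpr1-Zdbf2 window in 5 of 5 libraries, by 15.7 points ± 3.59 (SD, n = 5; exact sign-flip permutation test, p = 0.062, the smallest possible). The H19 window was higher than the Gpr1-Zdbf2 window in 3 of 4 libraries, by 10.8 points ± 14.3 (SD, n = 4; p = 0.25, exact). It was higher than the Rasgrf1 window in 2 of 4, with a mean difference of -5.32 points ± 12.1 (SD, n = 4; p = 0.5, exact). These 3 pairs were all that could be compared, and the position of the H19 window in the order is within the spread between its libraries.

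**Figure D2:**
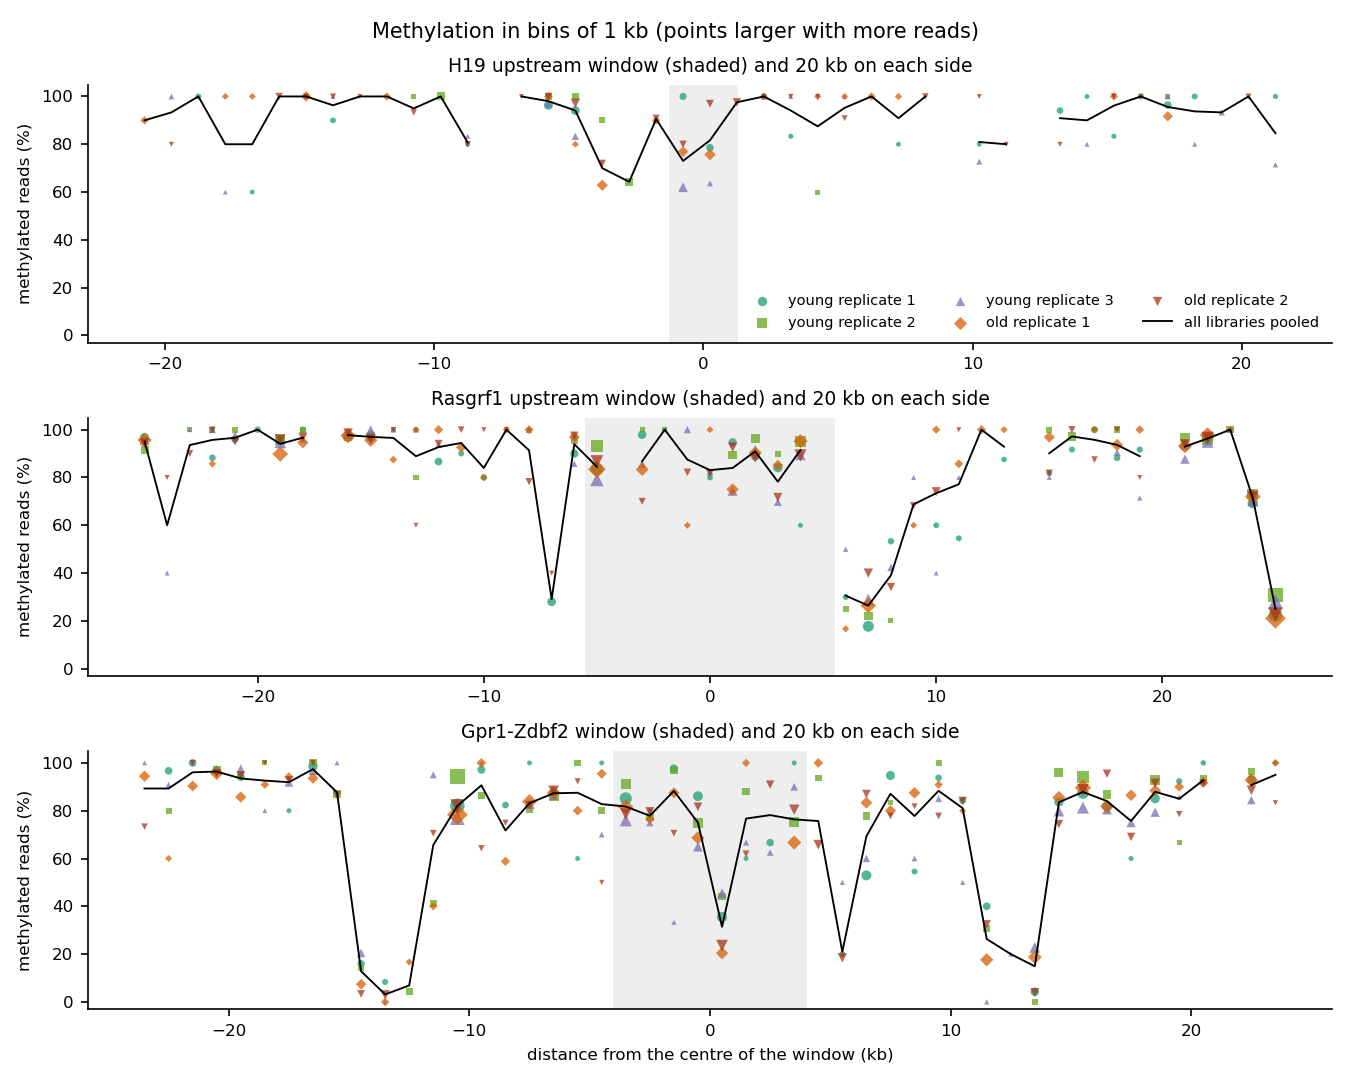
Methylated reads (percent, y axis) in bins of 1 kb against distance from the centre of the window (kb, x axis); points are libraries, drawn larger with more reads, the black line pools all libraries and the shaded band is the window. The Gpr1-Zdbf2 window holds a trough at its centre (31.4%), and the Rasgrf1 window ends at a trough (26.4%) that lies outside it.

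The level of the Gpr1-Zdbf2 window combined a methylated stretch and a trough. The lowest of its 1-kb bins, chr1:63261001-63262000, began 4.0 kb from the left edge and held 23 CpGs and 401 reads at a pooled level of 31.4%. Of the 90 CpGs of the window with at least 10 pooled reads, 37 were methylated in at least 80% of reads, 34 in 50% to 80% and 19 in less than 50%, and those 19 all lay between positions 63260999 and 63261798. The Rasgrf1 and H19 windows had 0 CpGs under 50% of 73 and of 15. This bin was picked for its low pooled level after the data were seen.

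**Figure D3:**
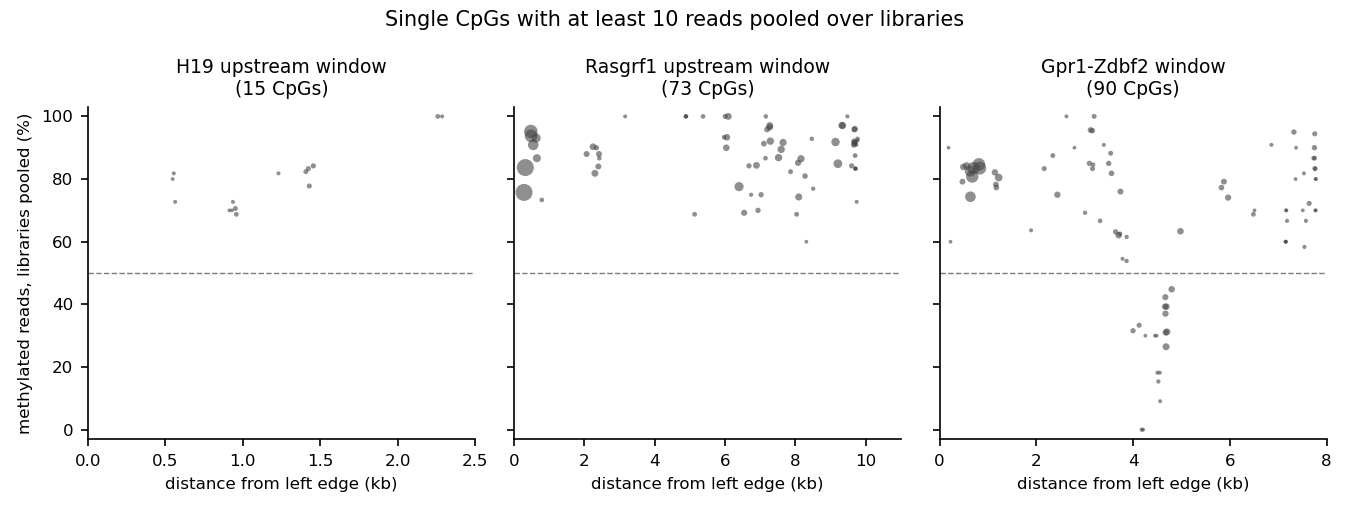
Single CpGs with at least 10 reads pooled over libraries, by distance from the left edge of the window (kb, x axis) and pooled methylated reads (percent, y axis); points are larger with more reads and the dashed line marks 50%. The 19 CpGs below the line are all in the Gpr1-Zdbf2 window, and the 73 CpGs of the Rasgrf1 window lie above it.

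In the trough, the level was 35.5% in young replicate 1 (93 reads, interval 25.8% to 46.1%), 44.0% in young replicate 2 (25 reads, 24.4% to 65.1%) and 45.5% in young replicate 3 (77 reads, 34.1% to 57.2%). It was 20.4% in old replicate 1 (49 reads, 10.2% to 34.3%) and 23.6% in old replicate 2 (157 reads, 17.2% to 31.0%). Both old libraries were below each young library. The means were 41.6% ± 5.39 (SD, n = 3) and 22.0% ± 2.23 (SD, n = 2), a difference of -19.7 points (p = 0.1, two-sided exact permutation test, the smallest that 5 libraries allow). Ages that do not overlap are common in these data: they were found in 17.3% of 500-bp tiles.

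The libraries did not cover the trough at the same CpGs. Its left 500 bp were at 40.0% in young replicate 1 (20 reads), 14.3% in young replicate 3 (14 reads), 4.55% in old replicate 1 (22 reads) and 13.9% in old replicate 2 (36 reads), with no listed CpG in young replicate 2. Its right 500 bp, chr1:63261501-63262000, were at 34.2%, 44.0% and 52.4% in young replicates 1, 2 and 3 and at 33.3% and 26.4% in old replicates 1 and 2. There old replicate 1 lay just below young replicate 1. The quasi-binomial model gave these 500 bp a difference of -13.7 points, with p = 0.037 and an adjusted p of 1, where 3.61% of 478338 tiles had an unadjusted p under 0.05 and 0 (0%) were called. At the 15 CpGs of the trough listed in at least 1 library of each age, old sperm was lower at 13 and higher at 1, with 41.1% of 190 young reads and 27.9% of 147 old reads methylated. Many of these CpGs are close neighbours that can share reads, such as those from 63261661 to 63261700, at 5 to 12 reads in a library. From 63261451 to 63261523 only young replicate 1 and old replicate 2 were listed. The 13 and the 1 are therefore not counts of independent agreements.

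Outside the trough, the Gpr1-Zdbf2 window was at 85.2%, 82.4% and 73.1% in young replicates 1, 2 and 3 and at 75.8% and 79.6% in old replicates 1 and 2. Here both old libraries lay inside the young range. The means were 80.3% ± 6.33 (SD, n = 3) and 77.7% ± 2.68 (SD, n = 2), a difference of -2.53 points (p = 0.6, two-sided exact permutation test, smallest possible 0.1). Without young replicate 3 the difference outside the trough was -6.09 points (quasi-binomial model, p = 0.0331, adjusted p = 0.87). The share of its reads that fell in the trough varied, from 6.33% in young replicate 2 to 26.9% in old replicate 2.

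**Figure D4:**
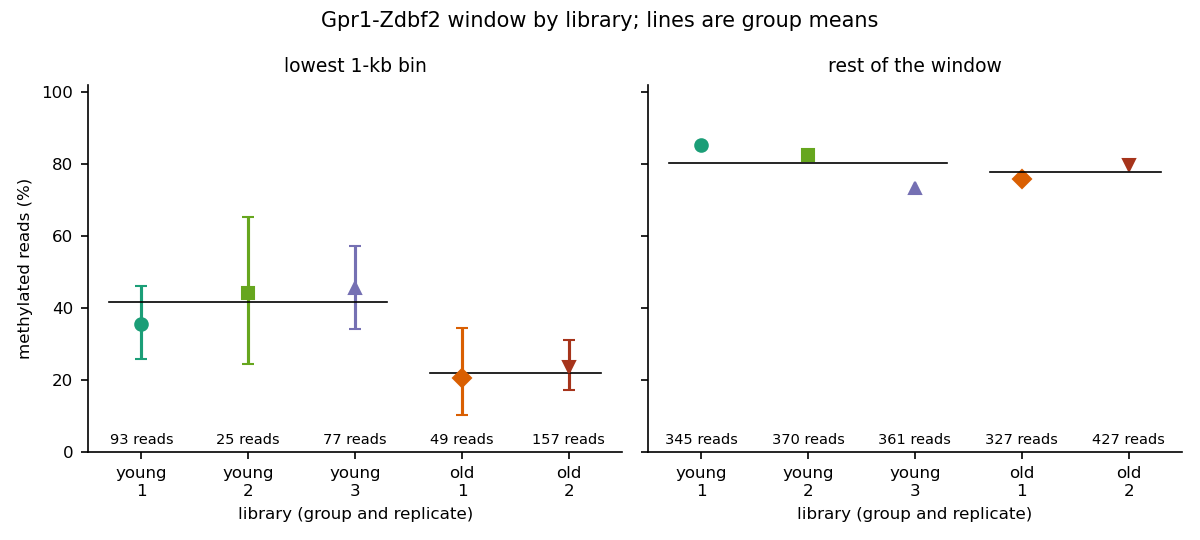
Methylated reads (percent, y axis from 0) in the lowest 1-kb bin of the Gpr1-Zdbf2 window (left, with exact 95% binomial intervals) and in the rest of the window (right), by library, with the number of reads under each point; lines are group means. The old libraries lie below the young ones in the bin (22.0% against 41.6% on average) and among them in the rest (77.7% against 80.3%).

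By 500-bp stretches, the Rasgrf1 window had reads in 15 of 22 and the Gpr1-Zdbf2 window in 15 of 16, but at 20 reads in each library only 4 and 2 could be tested, and 0 of the 5 stretches of the H19 window. Of the 6 tested, 0 were called, 5 had a lower mean in old sperm and 1 a higher one. The smallest p in the Rasgrf1 window was 0.133, at chr9:89877001-89877500, with a difference of -7.31 points. The best covered stretch of the Gpr1-Zdbf2 window, chr1:63257501-63258000, held 28.2% of its reads. It was at 88.0%, 94.5% and 75% in young replicates 1, 2 and 3 and at 83.3% and 77.0% in old replicates 1 and 2, so the ages overlapped there too.

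The starts of the genes that the windows serve were measured over 1000 bp on either side. The 250 bases before 4 of these starts are given to show how their CpGs are placed, 5′ to 3′ on the strand of the gene, from the RefSeq table of GRCm38.p6 (the same build as mm10), with each CG dinucleotide in capitals. CG reads the same on both strands. The sequences run from CG-rich (Rasgrf1 and the inner start of Zdbf2) through medium (the first start of Zdbf2) to CG-poor (Gpr1). Rasgrf1 has 21 CG there, a number that 16.3% of the 32851 promoters of the table reach, and the inner start of Zdbf2 has 26, which 9.59% reach. The first start of Zdbf2 has 13 (31.5%), and Gpr1 has 2 (81.2%). Of these printed CG, 0 were listed in any library at Rasgrf1 and 0 at the inner start of Zdbf2. At the first start of Zdbf2 2 were listed, on 12 reads, and at Gpr1 2, on 17 reads.
Rasgrf1, chr9:89909525-89909774, plus strand: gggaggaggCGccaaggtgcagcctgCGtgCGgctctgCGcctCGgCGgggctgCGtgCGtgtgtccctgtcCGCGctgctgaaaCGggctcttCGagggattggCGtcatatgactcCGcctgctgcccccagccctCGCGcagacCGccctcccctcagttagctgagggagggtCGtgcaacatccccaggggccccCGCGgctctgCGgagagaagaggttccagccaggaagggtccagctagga
Zdbf2 inner start, chr1:63273019-63273268, plus strand: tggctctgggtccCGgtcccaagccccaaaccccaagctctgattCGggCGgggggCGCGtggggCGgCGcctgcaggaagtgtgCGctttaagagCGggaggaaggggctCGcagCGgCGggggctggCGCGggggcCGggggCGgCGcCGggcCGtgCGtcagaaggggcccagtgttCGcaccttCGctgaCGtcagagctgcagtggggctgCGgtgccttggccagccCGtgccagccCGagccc
Zdbf2 first start, chr1:63200108-63200357, plus strand: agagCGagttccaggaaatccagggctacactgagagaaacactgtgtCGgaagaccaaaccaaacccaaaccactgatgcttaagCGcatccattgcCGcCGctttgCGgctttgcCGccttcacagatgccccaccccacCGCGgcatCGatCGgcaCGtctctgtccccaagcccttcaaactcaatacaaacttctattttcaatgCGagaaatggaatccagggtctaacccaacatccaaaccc
Gpr1, chr1:63210717-63210966, minus strand: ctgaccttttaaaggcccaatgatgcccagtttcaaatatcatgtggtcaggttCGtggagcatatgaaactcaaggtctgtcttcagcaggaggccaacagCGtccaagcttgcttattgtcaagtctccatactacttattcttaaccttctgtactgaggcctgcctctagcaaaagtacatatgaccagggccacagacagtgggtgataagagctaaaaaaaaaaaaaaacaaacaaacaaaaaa

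The 2 CG-rich starts were little methylated. The Rasgrf1 start had 0 methylated of 39 reads in young replicate 2, 0 of 37 in old replicate 1 and 0 of 32 in old replicate 2. That is 0 of 108 reads in all. Taken as independent, they allow a share of up to 2.78% by the limit of 3 reads and 3.36% by the exact interval. Neighbouring CpGs can share reads, so the true limit is looser than both. The 108 reads came from 18 CpGs at positions -857 to -287 from the start, so none of the CG in the printed bases was itself listed. The inner start of Zdbf2 was at 0% of 12 reads, 0% of 5 and 6.90% of 29 in young replicates 1, 2 and 3 and at 10.7% of 84 and 2.70% of 37 in old replicates 1 and 2. Its 17 CpGs lay at positions -956 to 986 from the start, and none of them was in the printed bases. Both starts were thus at 10.7% or less in each library with reads there, while the control window of the same domain was methylated at 64.6% or more. The Rasgrf1 start had no listed CpG in young replicates 1 and 3.

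The other starts were methylated in part or in full. The first start of Zdbf2 was at 44.0%, 40.0% and 52.7% in young replicates 1, 2 and 3 and at 48.8% and 47.9% in old replicates 1 and 2, on 337 reads, with 5 of them in young replicate 2. Gpr1 was at 95.3%, 91.7% and 62.2% in young replicates 1, 2 and 3 and at 78.9% and 85.7% in old replicates 1 and 2, on 422 reads. It was the 1 member start with enough reads for the test, with a difference of -0.741 points (quasi-binomial model, p = 0.932, adjusted p = 1), where 0 of 25029 starts (0%) were called, 994 of them at an unadjusted p under 0.05. A second Gpr1 start, at position 63214281, was at 72.9% of 118 reads. The H19 start was at 71.1% in young replicate 2, 62.9% in old replicate 1 and 72.0% in old replicate 2, on 98 reads, below the rest of the gene body, which was at 90.4% to 100% in the 5 libraries.

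**Figure D5:**
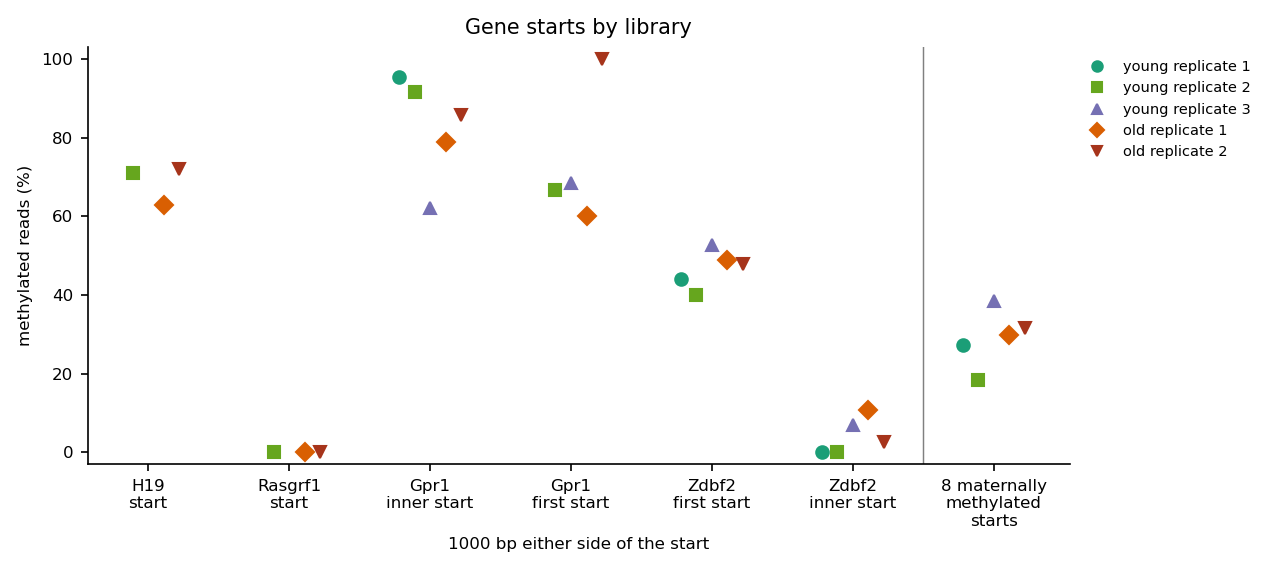
Methylated reads (percent, y axis) within 1000 bp of each start, by library; the last column sums 8 starts of maternally methylated imprinted genes. The Rasgrf1 start lies at 0%, the inner Zdbf2 start between 0% and 10.7%, the first start of Zdbf2 between 40.0% and 52.7%, and the 8 summed starts between 18.5% and 38.6%.

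Of 11 other genes of the 4 domains, 7 had reads at the start with the most CG before it, or at the start in the gene table where no CG count was given. Of these, 0 had the 20 reads in each library that the test needs. Igf2 had no reads at its start with the most CG. At other Igf2 starts the pooled level was 16.0% of 75 reads, 64 of them in young replicate 1, 91.7% of 36 and 93.3% of 15. Ins2, which encodes insulin, was at 96.2% of 26 reads, and the noncoding RNA Nctc1 at 97.2% of 36. Mirg, which hosts microRNAs, was at 95.6% of 68 reads. Ctsh, which encodes the lysosomal protease cathepsin H beside Rasgrf1, was at 13.9% of 273 reads, and Eef1b2, a translation elongation factor gene beside Gpr1, at 31.2% of 32. Dio3, which encodes an enzyme that inactivates thyroid hormone, was at 47.0% of 617 reads, with 26.5% and 34.3% in young replicates 1 and 2, no reads in young replicate 3, and 59.3% and 60.2% in old replicates 1 and 2. Begain was at 47.4% of 586 reads, with 4.76% and 40.0% in young replicates 1 and 2, none in young replicate 3, and 61.2% and 29.8% in old replicates 1 and 2. Ctsh was at 22.6%, 66.7% and 62.5% in young replicates 1, 2 and 3 and at 0% and 4.80% in old replicates 1 and 2, with 15 and 16 reads in young replicates 2 and 3. The libraries of the ages thus did not overlap at Ctsh and Eef1b2, lower in old, and at Dio3, higher in old. None of these starts was tested. Eef1b2 was at 100% of 10 reads in young replicate 2 and at 0% of 5 and 17 reads in old replicates 1 and 2. It had no listed CpG in young replicates 1 and 3. Of all starts tested, 17.3% had ages that do not overlap. Those had at least 20 reads in each library, so their share is not a like measure here, and fewer libraries separate more easily.

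Maternally methylated imprinted genes carry the opposite mark, known to be absent from sperm and present on 1 of 2 copies in body cells. All 9 listed starts had reads, and the 5 that could be tested gave 0 calls, with 4 higher and 1 lower in old sperm (median difference 0.727 points, against 0.0152 points over all starts tested). For Snrpn the start farthest downstream was taken, a choice made after its values were seen. It was at 13.2% of 76 reads, while the 3 other Snrpn starts were at 82.5%, 85.0% and 76.7% of 285, 200 and 660 reads, and the rule of the most CG would have taken the first of these. Summed over the 9, the level was 17.9%, 10.98% and 28.3% in young replicates 1, 2 and 3 and 21.6% and 23.6% in old replicates 1 and 2. Nnat held 8544 of the 11813 reads. Without it, the level was 27.4%, 18.5% and 38.6% in young replicates 1, 2 and 3 and 29.8% and 31.5% in old replicates 1 and 2. With Snrpn also left out it was at 28.1%, 18.5% and 39.0%, and at 30.6% and 31.5%. With the Snrpn start of the most CG in its place it was at 34.9%, 24.8% and 42.4%, and at 34.8% and 34.3%. Under each of these sums young replicate 2 was lowest at these starts and was highest in the Rasgrf1 and Gpr1-Zdbf2 windows, while young replicate 3 was highest at these starts and lowest in the H19 and Rasgrf1 windows. That order is one of sums and did not hold at each start. Young replicate 2 was lowest at Nnat, Peg3 and Nap1l5, and at Peg10 on 10 reads. At Plagl1 and Kcnq1ot1 it was not, with 32.2% and 34.5%. Young replicate 3 was the lowest library at Mest, with 12.2% of 41 reads. The sum over the 9 covers 8 or 9 genes in a library.

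Other markers of cell type were read the same way. Starts of germline genes, known to be unmethylated in the germ line and methylated in body cells, had reads for 7 of 8 genes, at 64.6% to 83.5% in young and 72.7% to 77.2% in old libraries. Ddx4 held 5200 of these 6424 reads and was at 84.9%. Without it they were at 38.1%, 23.6% and 52.2% in young replicates 1, 2 and 3 and at 26.4% and 27.4% in old replicates 1 and 2. With reads pooled, Dazl, which encodes an RNA-binding protein of germ cells, was at 9.35% and was the only 1 of the 7 under 10%. Tdrd1 was at 28.9%, Sycp3 at 40.5%, Sycp1 at 45.3%, Mael at 45.8% and Tex101 at 47.9%. Starts of 5 leukocyte genes were at 77.4% to 86.4% in young and 58.2% to 72.2% in old libraries, on 520 reads in all, but the sums cover 2 to 5 genes in a library. Coro1a, at 23.5% with 6 reads in young replicate 3 and 22 and 40 in old replicates 1 and 2, lowered the old sums. Without it, a choice made after seeing the values, the old libraries were at 79.1% and 81.9% and the young at 77.4% to 86.5%. Ptprc, the 1 leukocyte start tested, averaged 86.3% in the young and 86.9% in the old libraries. Starts of 6 genes of the epididymal epithelium were at 63.0% to 86.6% in young and 76.2% to 84.0% in old libraries. The part of cells other than sperm in the window levels was not tested.

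Among 2968 gene starts with at least 200 reads in each library, the 3 whose levels in the 5 libraries were nearest to the mean of the measured windows were those of Gm3126, Tsc22d1 and Gm35592, with root mean square differences of 1.96, 2.26 and 2.47 points. The mean of the windows was 83.1%, 86.9% and 71.0% in young replicates 1, 2 and 3 and 76.7% and 81.1% in old replicates 1 and 2, where young replicate 2 lacks the H19 window. Gm3126 was at 82.1%, 87.5% and 71.5% in young replicates 1, 2 and 3 and at 79.7% and 84.0% in old replicates 1 and 2. Tsc22d1 was highest in young replicate 2 (85.2%) and lowest in young replicate 3 (72.6%). These starts were picked for levels near those of the windows in each library, so their like order follows from the choice. All of these values share the same 5 libraries.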

How the data were processed

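The deposited files give, per the file headers, a count of reads (the coverage) for each CpG cytosine, with the percent called C and the percent called T. The submitters' processing notes name Trim Galore 0.4.3, Bismark 0.16.3, methylKit 1.4.0 and mm10 (GRCm38). Their settings, and any removal of duplicate reads, are not given in those sources. Incomplete conversion by bisulfite reads as methylation, and copies of a repeat can add reads to 1 place.

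Methylated reads were coverage times percent, a whole number for 100% of cytosines within the rounding of the percent. Both strands were merged, CpGs with at least 5 reads kept, and reads summed per window and library. Ages were compared with exact permutation tests and with a quasi-binomial model with a dispersion moderated across features (limma 3.58.1 squeezeVar, R 4.3.3), Benjamini-Hochberg adjusted over all features with at least 20 reads in each library, and tested on simulated data. Window and flank were compared within a library by flipping signs. Tests of single values and plots were made in Python 3.11.15 with scipy 1.17.1, matplotlib 3.10.9, pandas 2.3.3 and numpy 2.4.6. Starts came from the RefSeq promoter table (250 bases before a start) or, where it has no entry, from the gene table. A gene with several starts was represented by the start with the most CG. The rule for named features took all windows and member starts, the lowest, highest and smallest-p 500-bp stretch of a window, its lowest CpG with at least 10 reads in each library, and the 3 most alike starts. Members, lists and tests were chosen with earlier results of these data known. Alternatives covered the coverage minimum and upper limit, shared CpGs, window edges, flank length, the model, tile width, the replicate number and each library left out; leaving out the Gpr1-Zdbf2 trough was added after seeing the data.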

Additional observations from a re-analysis of the deposited data

How the results depend on the processing

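No window passed the threshold under any alternative run, although the binomial model, which takes reads as independent, gave the Gpr1-Zdbf2 window an adjusted p of 0.00489 and the H19 window 0.0445, at differences under 10 points. That model called 7680 of the 2500-bp features, 1446 of the 500-bp tiles and 1340 gene starts, where the quasi-binomial model called 0 of each. With each library left out in turn, 0 to 2 features of 2500 bp were called (2 without young replicate 3) and 0 tiles and starts. The difference between ages then ran from -3.44 to 22.3 points in the H19 window, from -4.65 to 0.964 in the Rasgrf1 window and from -10.7 to -4.88 in the Gpr1-Zdbf2 window. The other alternatives kept each window's direction, and the Gpr1-Zdbf2 difference was -14.0 points at CpGs with at least 10 reads. Window minus flank kept its direction except in the Gpr1-Zdbf2 window without its trough (0.679 points), where removing a bin picked as the lowest raises the window by construction. With the replicate number as a block, limma gave -0.721 and -0.776 on the log2 odds scale in the Rasgrf1 and Gpr1-Zdbf2 windows, against -0.373 and -0.553 without it, and called 0 features either way. The deviations of same-numbered libraries from their group means were correlated at r = -0.013 and -0.010 over 537788 features. With 2 old libraries these deviations mirror each other (r = 0.013 for young replicate 1 with old replicate 2). This check therefore cannot show whether same-numbered libraries were paired. The H19 window could not be fitted with the block, with CpGs of at least 10 reads or with CpGs listed in all 5 libraries, and nothing was run for the Dlk1-Meg3 window. Depth limits the H19 window most, at 50 to 99 reads in a library.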
